A study of Mus musculus with 15 samples.

Results

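The 37 genes described here encode the proteins that fold, modify and export secreted proteins at the endoplasmic reticulum (ER), together with the sensors that adjust this machinery to its load. They were chosen by gene symbol, and each was read from a probe set annotated to that gene alone, the brightest on average where there were several. Such a probe set was found for 36 of the 37 genes, out of 18193 genes read in this way. The collagen prolyl isomerase Fkbp10 had none and carries no value. Chondrocytes were prepared from the limb cartilage of CD1 mouse embryos at E15.5 and grown as primary monolayers. They were treated with LY294002 (10 µM), an inhibitor of PI3K, with UO126, an inhibitor of MEK, with SB202190, with Trichostatin A, an inhibitor of histone deacetylases, or with the vehicle DMSO alone. Total RNA of 3 biological replicates per treatment was hybridized to 15 Affymetrix mouse expression arrays. SB202190 is grouped with UO126 as acting on the MEK/ERK pathway in the series' text, while it is otherwise known as an inhibitor of p38. The sample labels give an incubation of 24 h and the series' text 2 h, and doses of UO126, SB202190 and Trichostatin A are not given in the sources used here. A monolayer lacks the zones of the growth plate and can hold cells other than chondrocytes, and each compound acted on all cells of a dish.

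Secreted proteins enter the ER through the Sec61 channel, fold with the help of chaperones and disulfide isomerases, and leave in COPII vesicles, while escaped ER proteins are brought back by KDEL receptors and misfolded ones are sent for degradation. When unfolded proteins build up, the sensors IRE1 (Ern1), ATF6 and PERK start the unfolded protein response, in which spliced XBP1 and cleaved ATF6 switch on genes of the folding and degradation machinery. Chondrocytes secrete large amounts of collagen and proteoglycan, and their collagen needs dedicated chaperones, prolyl isomerases and lysyl hydroxylases before it can leave the ER.

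The response is read through short promoter elements, and those found by an exact match of their letters are shown. Variant forms were not searched for, so a gene without a match can still carry an element. The 250 bases before each RefSeq gene start (mouse build GRCm38.p6) were searched on both strands for the ER stress response element ERSE (CCAAT and CCACG with any 9 bases between them), for ERSE-II (ATTGG and CCACG with any 1 base between them), and for the unfolded protein response element UPRE, TGACGTGG. A promoter sequence was at hand for 29 of the 36 genes. ERSE was found in 8 of the 29 genes, against 35 of 27025 genes with a promoter sequence. ERSE-II was found in 1 of the 29, against 10 of 27025, and UPRE in 2 of the 29, against 163 of 27025. Together 11 of the 29 genes (37.9%) held an element, against 0.759% of all genes with a promoter sequence. No element of one kind overlapped one of another. These genes are textbook members of the response, so their elements are a description of the list and no finding of the arrays. Each sequence below runs from 5′ to 3′ on the strand of the gene, with the element in capitals. In Calr, Kdelr3, Creld2 and the second site of Hsp90b1 the element lies on the opposite strand, so its letters appear reversed and complemented.
Herpud1 (ERSE-II, chr8:94386357-94386407, + strand): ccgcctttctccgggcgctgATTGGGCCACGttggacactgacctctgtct
Kdelr3 (UPRE, chr15:79516358-79516405, + strand): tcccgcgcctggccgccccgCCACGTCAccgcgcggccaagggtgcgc
Dnajc3 (ERSE, chr14:118937807-118937865, + strand): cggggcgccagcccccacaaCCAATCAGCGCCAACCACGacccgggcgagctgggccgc
Creld2 (ERSE, chr15:88819500-88819558, + strand): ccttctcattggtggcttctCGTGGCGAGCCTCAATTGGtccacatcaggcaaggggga
Sec24d (UPRE, chr3:123267450-123267495, + strand): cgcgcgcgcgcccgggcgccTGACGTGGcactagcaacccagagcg
Hsp90b1, first site (ERSE, chr10:86705618-86705676, - strand): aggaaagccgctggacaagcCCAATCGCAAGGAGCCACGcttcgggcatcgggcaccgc
Hsp90b1, second site (ERSE, chr10:86705513-86705571, - strand): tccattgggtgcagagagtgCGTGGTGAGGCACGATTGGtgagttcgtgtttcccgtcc
Hspa5 (ERSE, chr2:34772005-34772063, + strand): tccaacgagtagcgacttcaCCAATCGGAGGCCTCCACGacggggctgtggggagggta
Canx (ERSE, chr11:50325780-50325838, - strand): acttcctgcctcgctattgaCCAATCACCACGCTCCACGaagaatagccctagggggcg
Calr (ERSE, chr8:84847055-84847113, - strand): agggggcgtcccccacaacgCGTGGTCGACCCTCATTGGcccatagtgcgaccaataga
Syvn1 (ERSE, chr19:6046512-6046570, + strand): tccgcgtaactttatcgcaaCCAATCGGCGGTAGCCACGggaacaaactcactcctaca
Pdia6 (ERSE, chr12:17266471-17266529, + strand): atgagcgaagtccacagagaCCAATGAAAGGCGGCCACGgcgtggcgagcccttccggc

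The deposited values are log2 signals. The 36 genes had means over the 15 arrays between 8.43 (Atf6) and 13.2 (P4hb), so each was tested in every comparison and none passed the filter on dim probe sets through 1 group alone. A difference is given on the log2 scale as the mean of the first group minus the mean of the second, with its standard error (SE), and a gene was called changed at an adjusted p under 0.05 in limma. Tests ran over all probe sets with a mean signal of at least 50 in either group. The shares called among them are given beside the counts. Counts at an unadjusted p under 0.05 in limma were made for the listed genes only, so these shares are no yardstick for them. With 3 arrays per treatment a permutation of a single gene cannot go below p = 0.1, so p values come from the fit across all probe sets. The level of 28 of the 36 genes differed among the 5 treatments in the F test, against 44.5% of all probe sets tested. Trichostatin A gave the lowest mean of the 5 treatments in 25 genes and UO126 the highest in 19. Neither count was made over all probe sets, and UO126 was called above the next treatment in Fkbp7 alone. The 3 Trichostatin A arrays stood apart from the other 12 over the probe sets with a mean signal of at least 50 across 15 arrays. They did so along a first principal component that holds 64.0% of the variance. Chondrocyte markers were present in every group, while the endothelial markers Pecam1, Cdh5 and Tie1 and the osteoclast marker Calcr stayed under a signal of 50 in all of them. In these bulk cultures fewer cells of a type and less RNA per cell cannot be told apart.

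Trichostatin A lowered more of these genes than it raised. Among the 36 genes, 20 were lower and 4 higher in Trichostatin A than in DMSO, where 20.6% of all probe sets tested were called lower, 23.0% higher and 43.6% either way. The lower genes came from every role, led by the degradation factor Herpud1 (4.59-fold lower), the retrieval receptors Kdelr3 (2.70-fold) and Kdelr2 (2.40-fold), the transcription factor Xbp1 (2.44-fold) and the collagen chaperone Serpinh1 (2.04-fold). The sensors Ern1 (2.47-fold) and Atf6 (2.07-fold), the degradation adaptor Sel1l (1.44-fold) and the lysyl hydroxylase Plod1 (1.36-fold) were higher. The median difference over the 36 genes was -0.42, against -0.06 over all probe sets tested. In 22 of the 24 called genes the Trichostatin A arrays did not overlap the DMSO arrays, the exceptions being Pdia3 and Pdia4, and over all probe sets tested the groups did not overlap in 49.1%.

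**Figure D1:**
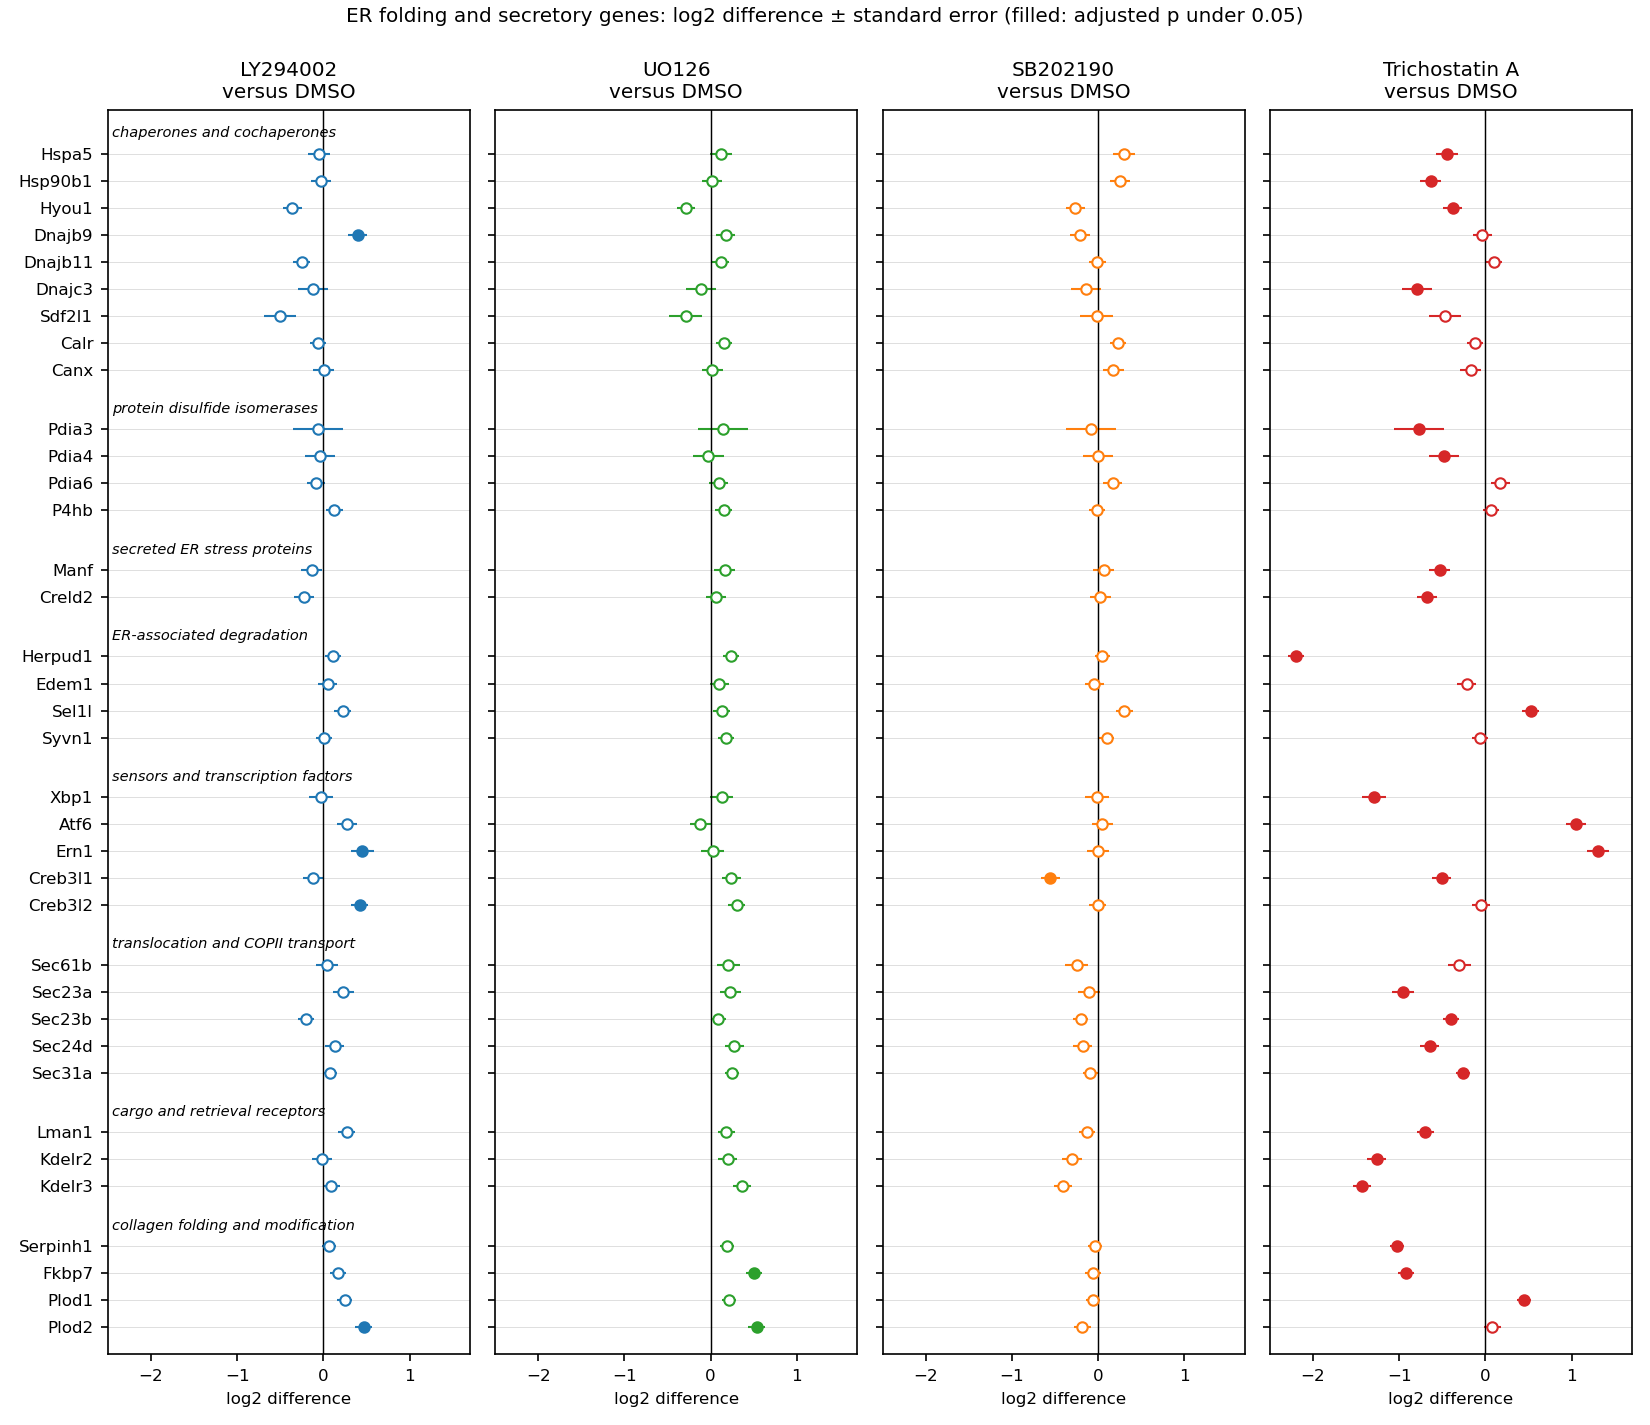
Log2 difference of each of the 36 genes from DMSO in 4 panels (x axis, log2 units, with 1 SE on either side), with genes on the y axis grouped by role and filled points for an adjusted p under 0.05. The Trichostatin A panel holds 24 filled points, 20 of them left of 0, against 4 for LY294002, 2 for UO126 and 1 for SB202190.

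Of the sensors and transcription factors, which start the response, 2 rose and 2 fell in Trichostatin A. Ern1, the IRE1 kinase and nuclease that splices Xbp1 mRNA, had log2 signals of 9.62, 9.67 and 10.15 in the Trichostatin A arrays and 8.43, 8.47 and 8.61 in the DMSO arrays. Atf6, the membrane-bound factor that is cleaved in the Golgi, had 9.17, 9.12 and 9.39 in Trichostatin A and 8.22, 7.90 and 8.41 in DMSO. All Trichostatin A arrays lay above all DMSO arrays for both genes, by 1.30 (SE 0.13, adjusted p = 4.56e-07 in limma) for Ern1 and 1.05 (SE 0.12, adjusted p = 1.61e-06) for Atf6. Xbp1, whose spliced mRNA encodes the factor downstream of IRE1, went the other way. Its signals were 10.54, 10.39 and 10.49 in Trichostatin A and 12.04, 11.76 and 11.50 in DMSO, a difference of -1.29 (SE 0.14, adjusted p = 8.26e-07) with no overlap. The arrays measure total Xbp1 mRNA and do not separate the spliced form. Creb3l1 (OASIS), a membrane-bound factor of collagen-secreting cells, was lower by a difference of -0.51, and Creb3l2 (BBF2H7), its relative that drives Sec23a in mouse cartilage, had a difference of -0.05 that did not pass the test. All 3 probe sets of Atf6 and all 4 of Xbp1 were called in the same direction. For Ern1 the call rests on 1 of its 5 probe sets, since a second one differed by -0.06 and was not called and the other 3 lay under a signal of 50. A second probe set of Creb3l2 was called lower (-0.49, adjusted p = 0.000321).

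Herpud1, which sits in the ER membrane and recruits the degradation machinery, had the largest difference of the 36 genes. Its log2 signals were 8.02, 8.02 and 8.26 in Trichostatin A and 10.40, 10.21 and 10.29 in DMSO and the groups lay far apart. The difference of -2.20 (SE 0.09, adjusted p = 1.03e-11 in limma) was nearly the same on its second probe set, at -2.17. Its partners in degradation did not move with it. Sel1l, the adaptor of the ubiquitin ligase HRD1, rose by 0.52 with 4 of its 5 probe sets called, while the ligase itself, Syvn1, had a difference of -0.07 and the mannose-trimming factor Edem1 of -0.22, both not called.

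The receptors that carry proteins between ER and Golgi all fell in Trichostatin A. Kdelr3, which returns chaperones with a KDEL tail to the ER, had 10.08, 10.07 and 10.34 in Trichostatin A and 11.62, 11.64 and 11.52 in DMSO, a difference of -1.43 (SE 0.10, adjusted p = 8.71e-09 in limma). The groups did not overlap, and the 3 DMSO arrays lay close together. Kdelr2 differed by -1.26, although its second probe set, at -0.61, was not called (adjusted p = 0.0978). Lman1 (ERGIC-53), a lectin that loads glycoproteins into vesicles, differed by -0.70, and 4 of its 5 probe sets were called lower while the last lay under a signal of 50. Among the coat and channel genes, Sec23a (-0.96), Sec24d (-0.65), Sec23b (-0.40) and Sec31a (-0.26) of the COPII coat were lower, and Sec61b of the Sec61 channel had -0.30 and was not called (adjusted p = 0.0732).

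Of the 9 chaperones and cochaperones 4 fell in Trichostatin A, as did 2 of the 4 disulfide isomerases. BiP (Hspa5), the main Hsp70 of the ER, averaged 12.68 ± 0.12 in Trichostatin A and 13.13 ± 0.28 in DMSO (SD, n = 3 each), a difference of -0.44. Its exchange factor Hyou1 (-0.38), its cochaperone Dnajc3 (-0.80) and the ER Hsp90 paralog Hsp90b1 (-0.64) were lower too. Calreticulin (Calr, -0.12) and calnexin (Canx, -0.17), the lectin chaperones that hold glycoproteins, were not called, nor were the cochaperones Dnajb9, Dnajb11 and Sdf2l1. Of the isomerases that form disulfide bonds, Pdia3 (-0.77) and Pdia4 (-0.48) were called lower with overlapping groups. The second probe set of each was not called. Pdia6 (0.17) and P4hb (0.06), which is also a subunit of collagen prolyl 4-hydroxylase, were not called. The secreted ER stress proteins Manf (-0.53) and Creld2 (-0.67) were both lower.

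The genes listed under collagen folding and modification went in different directions. Serpinh1 (HSP47), the chaperone of procollagen, had log2 signals of 12.27, 12.19 and 12.40 in Trichostatin A and 13.42, 13.31 and 13.22 in DMSO, without overlap and with a difference of -1.03 (SE 0.08, adjusted p = 2.17e-08 in limma). The prolyl isomerase Fkbp7 was lower by a similar amount (-0.92) on its brighter probe set, while a dim second one, near 6.7, differed by -0.08. Plod1, the hydroxylase of helical lysines, was higher (0.45), although its second probe set was not called. Plod2, which hydroxylates the telopeptides, had 0.08 and was not called. The 12 genes that were not called lay between -0.47 (Sdf2l1, adjusted p = 0.0512) and 0.17 (Pdia6).

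**Figure D2:**
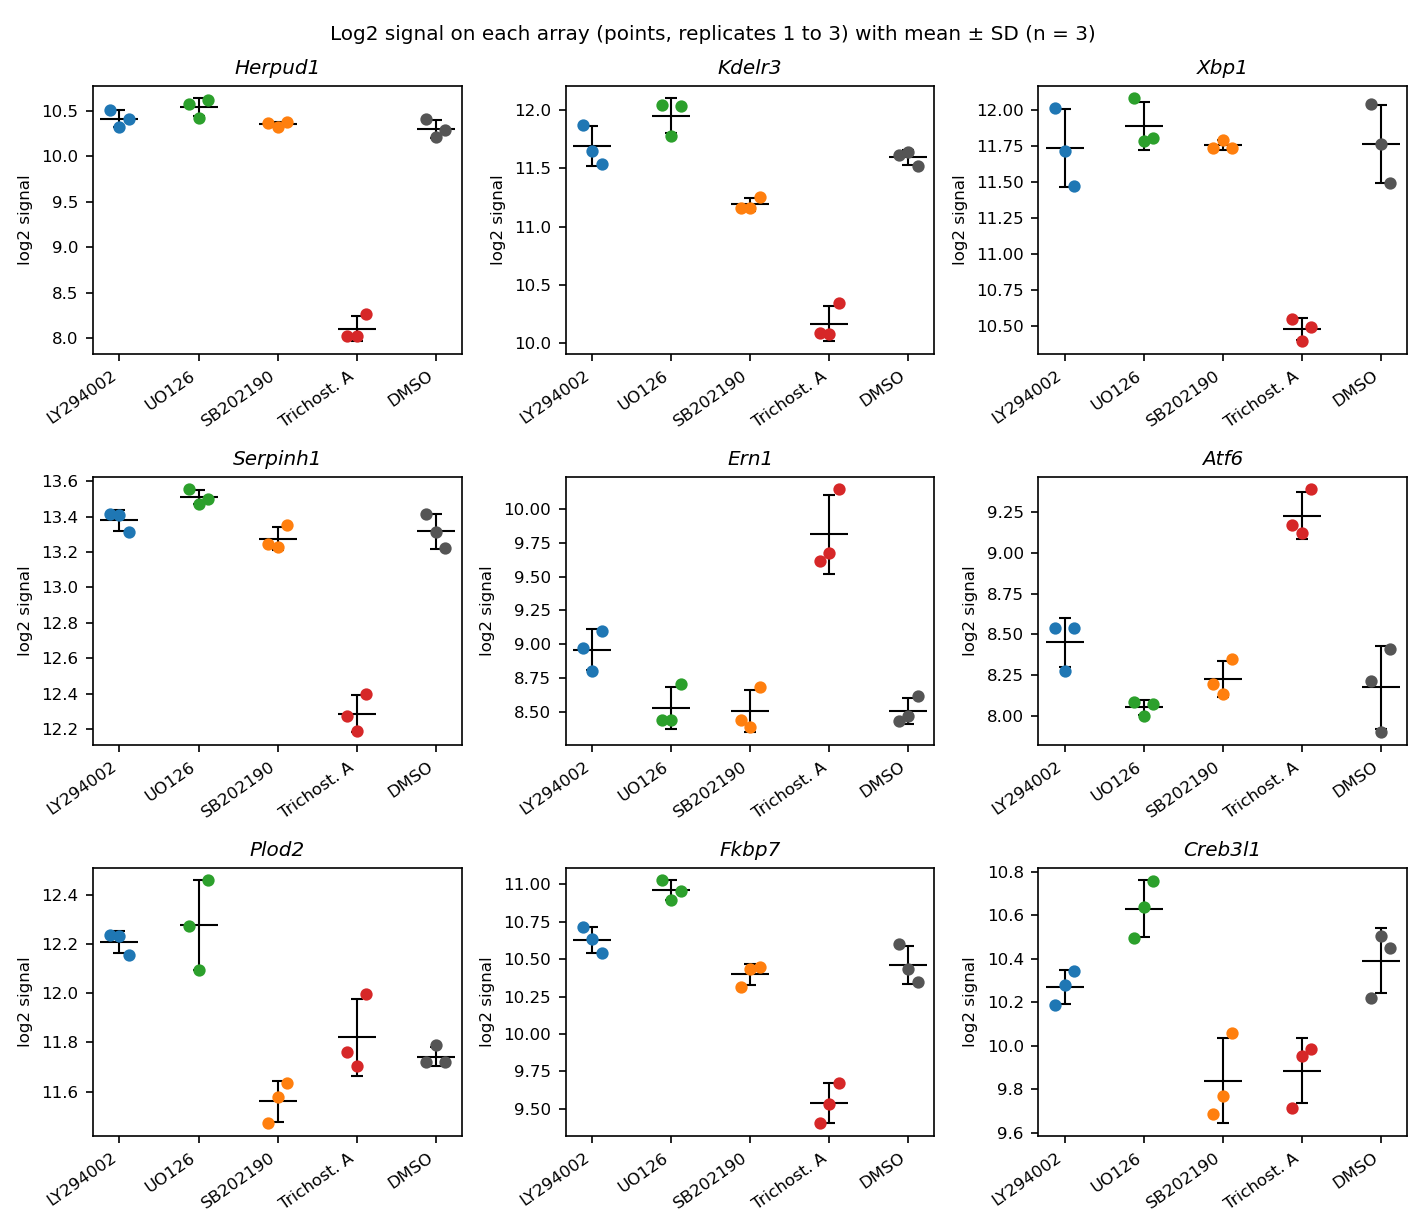
Log2 signal of 9 of the genes on each array (points) with the mean and SD of each treatment (bars), with LY294002, UO126, SB202190, Trichostatin A and DMSO along the x axis. Herpud1, Kdelr3, Xbp1 and Serpinh1 lie lowest in Trichostatin A with no overlap with DMSO, and Ern1 and Atf6 lie highest there.

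Promoter elements were found both in genes that fell in Trichostatin A and in genes that were not called. Of the 11 genes with an element shown above, 7 were lower (Herpud1, Kdelr3, Dnajc3, Creld2, Sec24d, Hsp90b1 and Hspa5) and none was higher, with a median difference of -0.64. Calr, Canx, Pdia6 and Syvn1 carry the ERSE that Hspa5 has and were not called. Among the 18 genes whose window held no exact match to an element, 8 were lower and 3 higher. Their median was -0.28, with differences between -1.29 and 1.30. The remaining 7 genes have no promoter sequence in the table, and 5 of them were lower and 1 higher.

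Chondrocyte markers moved in the same direction as these genes. All 8 markers (Col2a1, Acan, Sox9, Matn1, Col9a1, Col11a1, Hapln1 and Comp) were called lower in Trichostatin A, and their summed signal was between 32598 and 42273 in Trichostatin A and between 56738 and 62293 in DMSO. The summed signal of 6 fibroblast and perichondrium markers was between 28143 and 32076 in Trichostatin A and between 37412 and 43828 in DMSO, with 4 called lower and 1 higher. That of 6 skeletal muscle markers was between 764 and 852, against 1205 to 2417 in DMSO, and that of 4 osteoclast markers between 580 and 650, against 1699 to 1726. Macrophage markers summed to between 1702 and 1823 in Trichostatin A and 1460 to 1809 in DMSO, with 1 of 6 called higher and 4 lower. Endothelial, erythroid and keratinocyte marker sums were at most 630.0 on any array. The part of these shifts in the result was not tested.

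The genes of the same pathways that are not among the 37 give the setting of these changes. The cargo itself was mostly lower, and its list is not separate from the markers above. It holds every chondrocyte marker except Sox9, and Col1a1, Col1a2, Col3a1 and Dcn of the fibroblast markers. Of 22 genes for secreted cartilage and connective tissue matrix, 20 were lower in Trichostatin A and 1 was higher, led by the matrilins Matn3 (-3.32) and Matn1 (-2.90), Prelp (-2.93) and the link protein Hapln1 (-2.48), with a median of -1.07. Of 11 further enzymes and isomerases of collagen modification 10 were lower and none higher, among them P3h3 (-2.02), P4ha3 (-1.59), Fkbp14 (-1.45) and Crtap (-0.87), with a median of -0.79. At an unadjusted p under 0.05 in limma 10 genes of this second list were lower and 0 higher.

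Other arms of ER stress signaling and other transport genes moved in both directions. In the PERK branch, which slows translation, 3 of 10 genes were higher and 4 lower. Atf3 was at 2.21 and Ppp1r15a, the phosphatase subunit that ends the block, at 0.55, but Atf4 at -1.03 and Trib3 at -0.70. The arrays measure the mRNA of these genes and not the activity of the branch. Of 30 other folding, glycosylation and degradation genes, 10 were higher, such as Os9 (1.17), Edem3 (1.02) and Wfs1 (0.96), and 9 were lower, such as Txndc11 (-0.83), with a median of 0.03. Of 38 other translocation and transport genes tested, 7 were higher and 13 lower, with Surf4 (-1.33), Kdelr1 (-0.91), Ssr1 (-0.78) and Srprb (-0.78) furthest from 0 and a median of -0.11. The heat shock genes of the cytosol and mitochondria, a different compartment, had 6 of 13 genes higher and none lower, with Hspa1a at 3.83, Hspb1 at 2.87, Hspa1b at 2.31 and Hsp90aa1 at 0.45, and at an unadjusted p under 0.05 in limma 7 were higher and 1 lower.

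**Figure D3:**
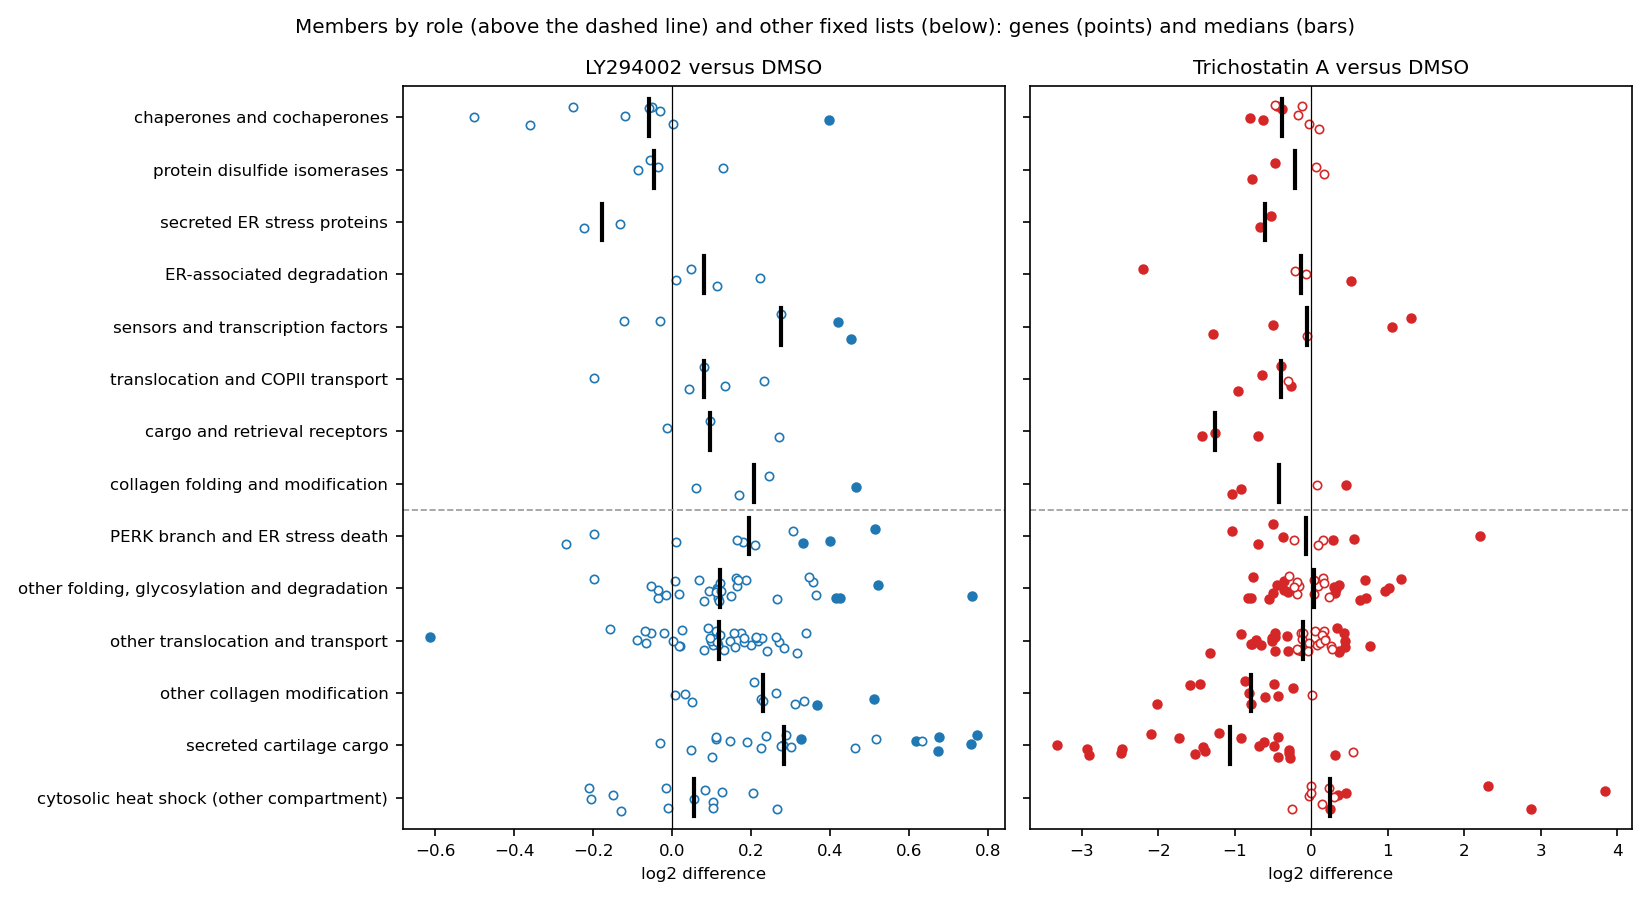
Log2 difference from DMSO of every tested gene in LY294002 and in Trichostatin A (x axis), with the 8 roles of the 36 genes above the dashed line and 6 other gene lists below it. Points are genes and bars are medians, and in Trichostatin A the median of the cargo and retrieval receptors is -1.26, that of the secreted cartilage cargo -1.07 and that of cytosolic heat shock 0.25.

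Inhibition of PI3K with LY294002 changed a share of these genes near that of all probe sets. It raised 4 of the 36 genes relative to DMSO by 1.32-fold to 1.38-fold and lowered 0, where 6.83% of all probe sets tested were called higher, 1.78% lower and 8.62% either way. At an unadjusted p under 0.05 in limma, 8 genes were higher and 4 lower, a threshold at which all probe sets were not counted. The genes called were the lysyl hydroxylase Plod2, the sensor Ern1, the transcription factor Creb3l2 and Dnajb9 (ERdj4), a cochaperone of BiP that can keep IRE1 inactive. Hspa5 (-0.05), Xbp1 (-0.03), Herpud1 (0.11), Creld2 (-0.22), Dnajb11 (-0.25), Hyou1 (-0.36) and Sdf2l1 (-0.50) were not called.

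Plod2 had log2 signals of 12.24, 12.24 and 12.16 in LY294002 and 11.72, 11.79 and 11.72 in DMSO, a difference of 0.47 (SE 0.10, adjusted p = 0.00800 in limma), and both its probe sets were called. Ern1 had 8.98, 8.80 and 9.10 in LY294002 and 8.43, 8.47 and 8.61 in DMSO, a difference of 0.45 (SE 0.13, adjusted p = 0.0438). In both genes the lowest LY294002 array lay above the highest DMSO array, by less for Ern1, whose second probe set differed by -0.11 and was not called. Creb3l2 had 10.70, 10.54 and 10.64 in LY294002 and 10.33, 10.08 and 10.21 in DMSO, a difference of 0.42 (SE 0.10, adjusted p = 0.0169), and its second probe set was called too, at 0.44. Dnajb9 had 11.20, 11.05 and 10.94 in LY294002 and 10.93, 10.58 and 10.49 in DMSO, a difference of 0.40 (SE 0.11, adjusted p = 0.0381). The third LY294002 array of Dnajb9 lay only just above the first DMSO array. Over all 36 genes 7 had groups that did not overlap, against 23.7% of all probe sets tested.

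Replicate numbers paired the LY294002 and DMSO arrays, and taking them as a block added genes on both sides. With the block 7 genes were higher, the 4 above and Atf6 (0.28), Lman1 (0.27) and Plod1 (0.25), and 3 were lower, Sdf2l1 (-0.50), Hyou1 (-0.36) and Dnajb11 (-0.25), where 13.3% of all probe sets were called higher and 5.1% lower. The direction of the group as a whole depended on the scaling. The median over the 36 genes was 0.03 in the deposited values, with 20 genes above and 16 below 0, and -0.12 after quantile normalization, with 10 above and 26 below, when 2 genes were called higher (Dnajb9 and Creb3l2) and 8 lower (Hspa5, Hyou1, Dnajb11, Calr, Pdia6, Manf, Creld2 and Sec23b). Over all probe sets 2362 were called higher and 616 lower in the deposited values, against 2309 and 1410 after quantile normalization and 3112 and 377 with each array centred on its median. None of the 4 calls held in every alternative, and leaving out LY294002 replicate 1, DMSO replicate 2 or DMSO replicate 3 left 1 gene higher in each case.

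Beyond the 36 genes, LY294002 raised some genes of the ER surroundings. Mbtps1, the Golgi protease that cleaves ATF6, was higher by 0.76, and Wfs1 (0.52), Sil1 (0.43), an exchange factor of BiP, and Os9 (0.42) also rose, in all 4 of 30 other folding, glycosylation and degradation genes. The median of that list was 0.12, against -0.02 over all probe sets tested. In the PERK branch Ppp1r15a (0.52), Chac1 (0.40) and the oxidase Ero1a (0.33) were higher. The signal peptidase subunit Sec11c was the single transport gene called, at -0.61. Of the collagen modification genes P3h3 (0.51) and Crtap (0.37) rose, and of the secreted cargo 6 of 22 did, led by Comp (0.77), Matn1 (0.76), Prelp (0.68) and Matn4 (0.67). Of these 14 named calls, 3 (Os9, Matn1 and Matn4) held in every alternative run and 11 were lost in at least 1, Mbtps1 when the probe sets of a gene were averaged (adjusted p = 0.174 in limma). None of 13 cytosolic heat shock genes was called in limma, and 0 had an unadjusted p under 0.05. The chondrocyte markers, which apart from Sox9 are also in the cargo list, had 2 of 8 called higher. Their summed signal was between 72774 and 74583 in LY294002 and between 56738 and 62293 in DMSO. Osteoclast markers summed to between 1371 and 1463 in LY294002 and between 1699 and 1726 in DMSO, and keratinocyte markers to between 419 and 479 in LY294002 and between 512 and 630.0 in DMSO, with 1 called lower in each list, and 1 of 6 macrophage markers was called higher. The part of these shifts in the result was not tested.

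UO126 raised 2 of the 36 genes, Plod2 and Fkbp7, and lowered none. Plod2 had log2 signals of 12.27, 12.10 and 12.46 in UO126 and 11.72, 11.79 and 11.72 in DMSO, a difference of 0.53 (SE 0.10, adjusted p = 0.00686 in limma) on 1 probe set and 0.56 on the other, both called. Fkbp7 had 11.03, 10.90 and 10.96 in UO126 and 10.60, 10.43 and 10.35 in DMSO, a difference of 0.50 (SE 0.09, adjusted p = 0.00639), with 0.01 on its dim second probe set, which was not called. Neither gene's groups overlapped. Over all probe sets tested 1.14% were called higher, 0.792% lower and 1.93% either way. At an unadjusted p under 0.05 in limma 10 of the 36 genes were higher and 1 was lower. All probe sets were not counted at that threshold. The 34 other genes lay between -0.29 (Sdf2l1) and 0.36 (Kdelr3). The median of the 36 genes was 0.15, against 0.00 over all probe sets tested, and 31 of the 36 were above DMSO (28 after quantile normalization). With the replicate numbers as a block 4 genes were higher, the other two being Creb3l2 (0.30) and Kdelr3 (0.36), where 2.45% of all probe sets were.

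Beyond the 36 genes, UO126 raised some genes of the other lists, and genes outside these lists were not examined by class. Of the secreted cargo 5 of 22 genes were higher, with Fmod at 0.99, Col9a2 at 0.94, and Acan and Col9a3 at 0.73 each. P4ha1 (0.48), a catalytic subunit of prolyl 4-hydroxylase, the ER-to-Golgi SNARE Sec22b (0.39), Chac1 (0.50) and the small heat shock gene Hspb1 (0.42) were the only genes called in their lists. Of these 8 named calls Fmod and Col9a2 held in every alternative run and 6 were lost in at least 1, Col9a3 (adjusted p = 0.0475 in limma) in 8 of 13, among them leaving out any 1 of the UO126 or DMSO arrays. Chondrocyte markers are, apart from Sox9, also in the cargo list. They summed to between 69015 and 78364 in UO126 and between 56738 and 62293 in DMSO. Of the 8 markers 2 were called higher, and this was not tested as a part of the result.

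SB202190 lowered 1 of the 36 genes, Creb3l1, and raised 0. Creb3l1 had log2 signals of 9.69, 9.77 and 10.06 in SB202190 and 10.22, 10.50 and 10.45 in DMSO, a difference of -0.55 (SE 0.11, adjusted p = 0.0169 in limma). The groups did not overlap, although the third SB202190 array came close to the first DMSO array. Over all probe sets tested 0.706% were called lower, 1.23% higher and 1.94% either way. At an unadjusted p under 0.05 in limma 5 of the 36 genes were lower and 4 higher. All probe sets were not counted at that threshold. Creb3l1 has no second probe set, and the call was lost when SB202190 replicate 1 or 2 or DMSO replicate 2 or 3 was left out. With the replicate numbers as a block Kdelr3 (-0.40) was lower as well, Sel1l (0.30) was higher, and 1.93% of all probe sets were lower and 3.58% higher. The 35 genes that were not called lay between -0.40 (Kdelr3, adjusted p = 0.0576) and 0.30 (Hspa5), and the median of the 36 was -0.03, or 0.00 with each array centred on its median. In the other pathway lists Fmod (-0.50) was the only gene called, and the call was lost in 7 of 13 alternatives. Chondrocyte markers summed to between 53540 and 59014 in SB202190 and between 56738 and 62293 in DMSO, and overlapped. In the other marker lists 1 macrophage and 1 osteoclast marker were called higher and 1 keratinocyte marker lower, and their part in the result was not tested.

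The 3 kinase inhibitors were compared with each other directly, since their comparisons with DMSO share the DMSO arrays. UO126 and SB202190 differed in 7 of the 36 genes, all higher in UO126, where 2.68% of all probe sets tested were called higher, 2.53% lower and 5.22% either way. At an unadjusted p under 0.05 in limma 15 genes were higher in UO126 and 0 lower, without a count over all probe sets. Creb3l1 had 10.50, 10.64 and 10.76 in UO126 and 9.69, 9.77 and 10.06 in SB202190, a difference of 0.79 (SE 0.11, adjusted p = 0.000336). Kdelr3 had 12.04, 11.78 and 12.04 in UO126 and 11.16, 11.16 and 11.25 in SB202190, a difference of 0.76 (SE 0.10). For both genes every UO126 array lay above every SB202190 array. Plod2 differed by 0.72 and Fkbp7 by 0.56, and Kdelr2, Sec24d and Sec31a completed the 7. In 22 of the 36 genes the UO126 and SB202190 arrays did not overlap, 19 of them with UO126 above, against 21.7% of all probe sets tested. Replicate numbers paired these arrays, and with the block 14 genes were higher in UO126 and 0 lower, where 4.12% of all probe sets were higher and 5.05% lower.

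**Figure D4:**
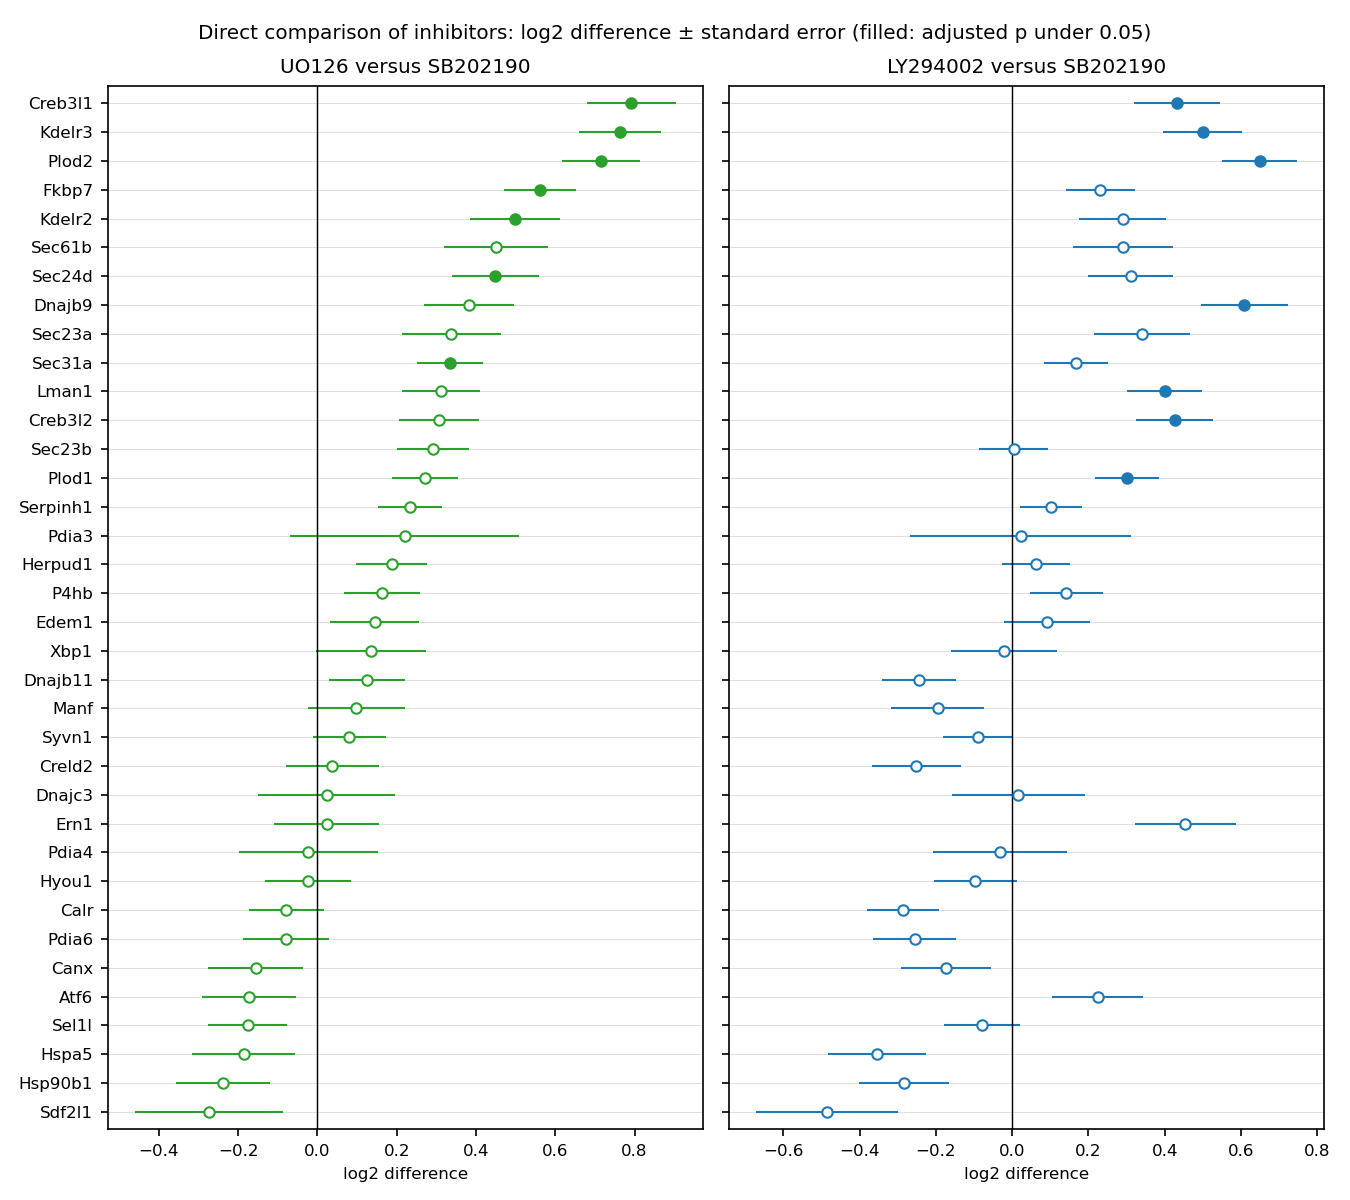
Log2 difference (x axis, with 1 SE on either side) of the 36 genes between UO126 and SB202190 and between LY294002 and SB202190. Genes on the y axis of both panels run from the highest to the lowest difference between UO126 and SB202190. Filled points mark an adjusted p under 0.05. Each panel holds 7 filled points, all right of 0, with Creb3l1 at 0.79 in the first and Plod2 at 0.65 in the second.

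LY294002 was also higher than SB202190 in 7 genes and lower in 0, where 3.06% of all probe sets tested were called higher, 1.54% lower and 4.60% either way. At an unadjusted p under 0.05 in limma 13 genes were higher in LY294002 and 7 lower, without a count over all probe sets. Plod2 (0.65, SE 0.10, adjusted p = 0.000977) and Dnajb9 (0.61, SE 0.11, adjusted p = 0.00433) led, followed by Kdelr3 (0.50) and Creb3l1 (0.43), and Creb3l2, Lman1 and Plod1 completed the list. With the block 10 genes were higher and 3 lower, where 6.5% of all probe sets were higher and 3.14% lower. After quantile normalization 5 genes were higher in LY294002 and 8 lower, and over all probe sets 1133 were higher and 1010 lower, against 1051 and 528 in the deposited values.

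LY294002 and UO126 differed in 2 genes, Dnajb11 (-0.37, SE 0.10, adjusted p = 0.0327) and Fkbp7 (-0.33, SE 0.09, adjusted p = 0.0439 in limma), both lower in LY294002, where 1.65% of all probe sets tested were called lower, 3.99% higher and 5.64% either way. None of the 36 genes was higher in LY294002. At an unadjusted p under 0.05 in limma 2 were, without a count over all probe sets. Plod2, which rose in both treatments relative to DMSO, differed by -0.07 between them. With the block 2 genes were higher and 5 lower in LY294002, where 9.7% of all probe sets were higher and 4.29% lower. After quantile normalization 0 were higher and 12 lower, and over all probe sets 1573 were higher and 1172 lower, against 1376 and 569 in the deposited values.

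Trichostatin A differed from each kinase inhibitor in many more genes. It was higher than LY294002 in 4 genes and lower in 20, where 19.7% of all probe sets tested were called higher, 20.3% lower and 40.0% either way. It was higher than UO126 in 4 and lower in 25, where 22.5% were called higher, 20.1% lower and 42.6% either way. It was higher than SB202190 in 4 and lower in 17, where 21.0% were called higher, 17.3% lower and 38.3% either way. Herpud1 differed by -2.31 from LY294002, -2.44 from UO126 and -2.25 from SB202190. Ern1 (0.85) and Atf6 (0.78) were higher in Trichostatin A than in LY294002 too, although Ern1 was also called higher in LY294002 than in DMSO. Plod2 went different ways in these comparisons, being lower in Trichostatin A than in UO126 (-0.46) or LY294002 (-0.39) and higher than in SB202190 (0.26).

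The 5 treatments were ordered by mean in each gene, and neighbours in that order were compared. The treatment with the lowest mean differed from the next one up in 14 of the 36 genes, and in all 14 it was Trichostatin A. At the upper end the first and second treatments differed in 3 genes, Ern1 and Atf6 with Trichostatin A above LY294002 and Fkbp7 with UO126 above LY294002. In the middle of the order only Plod2 and Creb3l1 had neighbours that differed, with Trichostatin A below LY294002 in both. Against DMSO 23 of the 36 genes were called in 1 comparison, 4 in 2 (Ern1, Creb3l1, Fkbp7 and Plod2) and 9 in none. None of these counts was taken over all probe sets, so whether they are particular to the 36 genes was not tested. The neighbours were also picked by the same means that were then compared.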

How the data were processed

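Total RNA of 15 cultures was hybridized to Affymetrix mouse expression arrays. The authors deposited a normalized log2 signal for every probe set of every array, with no pooling, and whether GC-RMA or RMAExpress made them is not settled. The 64 control probe sets were removed from the 45101, and 34945 of the others carry 1 gene symbol. A model with a mean for each treatment was fitted to the 15 arrays with limma 3.58.1 (R 4.3.3, 10 residual degrees of freedom) after a filter at a mean signal of 50 in either group, with Benjamini-Hochberg adjustment over the probe sets tested. No depth exists for such signals, and precision is set by how many arrays there are (median SE of a member's difference 0.11). The genes and lists were chosen with earlier results of these data known. Named are all called members, up to 4 called members of each pair of inhibitors and up to 4 called genes of each other list. Array values are given for the 4 largest called differences from DMSO, and for Atf6, Serpinh1 and the first genes of a pair of inhibitors, which were added after their values were seen. Promoters came from RefSeq (Python 3.11.15). Deviations of same-numbered arrays correlated at 0.771, 0.407 and 0.629 for LY294002 and DMSO, and at 0.237 or more for UO126 and SB202190 with DMSO. For Trichostatin A and DMSO they correlated at 0.242, 0.480 and 0.0268. By the lowest correlation, arrays of the kinase inhibitors and DMSO were taken as paired by number, from the data and not from a label. Trichostatin A and DMSO arrays were not, which rests on replicate 3 alone. By the same rule Trichostatin A was paired with UO126 and SB202190 and not with LY294002. Alternatives were the replicate block, the arrays of the 2 groups alone, no filter, a filter at 100, quantile normalization, centring on array medians, the mean of a gene's probe sets, and leaving out each array. The fit without a block was run on simulated arrays with independent noise, which leaves out the correlation of same-numbered arrays. The fit with the block was run on simulated arrays with a shift shared by replicate number.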

Additional observations from a re-analysis of the deposited data

How the results depend on the processing

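No direction of a called gene was reversed in any alternative, and 20 of the 31 calls against DMSO held in all 13 alternatives run for each. All 20 were in Trichostatin A, where Pdia3, Pdia4, Hspa5 and Sec31a were lost in some, while none of the 4 calls in LY294002, 2 in UO126 and 1 in SB202190 held throughout. Of 47 named calls of the other gene lists 18 were lost in at least 1 alternative, 11 in LY294002, 6 in UO126 and 1 in SB202190. With the replicate number as a block 7 genes were higher and 3 lower in LY294002, 4 higher in UO126, and 1 higher and 2 lower in SB202190, and the count that differed was 7 for LY294002 against UO126, 13 for LY294002 against SB202190 and 14 for UO126 against SB202190. The block lost no call, and moved no count of Trichostatin A by over 1.5 times. With the arrays of the 2 groups alone the counts were 1 higher in LY294002, 0 higher in UO126, 0 lower in SB202190 and 0 differing between LY294002 and UO126, where fewer arrays set the spread. A filter at a signal of 100 gave 1 lower in LY294002 and 2 lower in SB202190. After quantile normalization 2 were higher and 8 lower in LY294002, 4 were lower in SB202190, and 12, 13 and 14 differed between LY294002 and UO126, LY294002 and SB202190, and UO126 and SB202190, and the cause was not tested. Centring on array medians left 0 between LY294002 and UO126. Averaging a gene's probe sets gave 2 lower in LY294002, 1 lower in UO126, 2 lower in SB202190, 5 between LY294002 and UO126 and 11 between UO126 and SB202190. Leaving out each array in turn, the counts ran between 1 and 4 higher and 0 and 1 lower in LY294002 (1 higher without LY294002 replicate 1, DMSO replicate 2 or DMSO replicate 3), 1 and 2 higher in UO126 (1 without UO126 replicate 3), and 0 and 1 lower in SB202190. They ran between 16 and 21 lower in Trichostatin A, with 4 higher throughout. Between inhibitors they ran from 0 to 1 (LY294002 and UO126, at 1 without LY294002 replicate 1 or UO126 replicate 2 and at 0 without any other), 2 to 6 (LY294002 and SB202190, at 2 without LY294002 replicate 1, at 3 without SB202190 replicate 1 or 2, and at 4 without LY294002 replicate 2 or 3), 4 to 8 (UO126 and SB202190, at 4 without UO126 replicate 3 or SB202190 replicate 1), and from 25 to 31 for the genes that differ over 5 treatments.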

Other observations

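Calls in Trichostatin A were compared with the other probe sets of the same gene. Of the 24 called genes 16 have further probe sets, 33 in all, and 21 of the 33 were called in the same direction, 0 in the opposite one, with 4 of opposite sign. In 10 of the 16 genes at least 1 further probe set was called the same way. All 5 probe sets of Dnajc3 were called lower. Probe sets of 1 gene share its RNA and are not replicates.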
